A study of Macaca mulatta with 12 samples.

Results

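Among the single nuclei profiled from frozen amygdala of rhesus macaques (Macaca mulatta), 162 of 26400 were inhibitory neuron nuclei in which the transcript of corticotropin-releasing hormone (CRH) was counted. They were chosen on measured counts of unique molecular identifiers (UMIs, each standing for 1 captured transcript). A nucleus needed at least 3 UMIs of GAD1 and GAD2 together, at most 1 of SLC17A7, at most 1 of SST, 0 of LHX6, fewer than 8 of CNR1 and at least 1 of CRH. GAD1 and GAD2 encode the enzymes that make the inhibitory transmitter GABA, and SLC17A7 a glutamate transporter of excitatory neurons. SST and LHX6 mark interneurons born in the medial ganglionic eminence, and CNR1 encodes the cannabinoid receptor CB1. Levels of these genes are therefore the choice itself and are not a result.

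The study had 1 group, surgically removed amygdala tissue, with 12 labelled samples whose titles give 3 specimens with 4 libraries each. Nuclei were captured in droplets and read at the 3′ end of their transcripts, and the levels given refer to RNA in the nucleus. The barcodes end in 1 of 3 suffixes, which no label ties to a specimen, and the nuclei were handled as 1 pool. The 3 barcode sets are given side by side only, and no p-value over animals could be computed.

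CRH is the peptide that starts the hormonal stress response when released from the hypothalamus. It is also made by neurons outside the hypothalamus, among them GABA neurons of the amygdala and interneurons of the cortex. In the rodent cortex, CRH is found in part of the interneurons that make vasoactive intestinal peptide (VIP), which arise in the caudal ganglionic eminence and often make cholecystokinin (CCK) or the calcium-binding protein calretinin (CALB2). In the rodent central amygdala, CRH marks long-range GABA neurons that are related to striatal neurons and arise in the lateral ganglionic eminence.

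CRH nuclei made up 0.614% of all nuclei (95% exact Clopper-Pearson interval 0.523 to 0.715%) and 4.95% of the 3272 nuclei with at least 3 GAD1 and GAD2 UMIs (4.23 to 5.75%). Their share of these 3272 was 5.20, 3.98 and 5.75% in barcode sets 1, 2 and 3, with 61, 44 and 57 nuclei. Of the 1449 nuclei that met every criterion but the one on CRH, 11.2% held a CRH UMI (9.60 to 12.9%). All intervals given here cover counting error only. CRH nuclei held a median of 5105 UMIs (range 2549 to 15381) and 929372 UMIs in all. They were set against 3 groups without a CRH UMI. The gate-matched nuclei met the same criteria (1287 nuclei, median 5482 UMIs). The CNR1-high nuclei differed from them in having at least 8 CNR1 UMIs (434 nuclei, median 7845 UMIs). The other inhibitory nuclei were all those with at least 3 GAD1 and GAD2 UMIs and 0 of CRH (3004 nuclei, median 6408.5 UMIs), and include both of these groups. Comparisons thus share nuclei, and each is given by its own values. Across barcode sets, 68 barcode sequences occurred in more than 1 set, and 1 CRH nucleus carried such a barcode.

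CRH was sparse in these nuclei. Of the 162, 120 held 1 CRH UMI, 32 held 2, 7 held 3, 2 held 4 and 1 held 6. The level was 25.7 CPM (UMIs of a gene per 1000000 UMIs of the summed group) over the 1449 gated nuclei, 2.75 CPM in 1390 excitatory nuclei and 7.50 CPM in 1059 astrocyte nuclei. A CRH UMI was present in 3.09% of the excitatory nuclei at a median of 11335.5 UMIs and in 2.36% of the astrocyte nuclei at a median of 2169 UMIs, which serves as the background. After each nucleus was thinned to 2000 UMIs, CRH was found in 5.56% of gated nuclei, 0.361% of excitatory nuclei and 0.968% of astrocyte nuclei. At least 2 CRH UMIs were held by 2.90% of gated nuclei, against 0.0719% of excitatory nuclei and 0.189% of astrocyte nuclei. The gated nuclei thus stood above both backgrounds on each of these measures, and whether a given nucleus with 1 CRH UMI owes it to free RNA was not tested. CRH was not confined to the gate. All nuclei with at least 8 CNR1 UMIs and otherwise the same criteria held CRH in 11.8% (492 nuclei, 21.7 CPM).

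The rule left out 106 of the 268 nuclei that had CRH and at least 3 GAD1 and GAD2 UMIs. CNR1 was the criterion failed by 66 of them, LHX6 by 35, SST by 13 and SLC17A7 by 8. On either side of the CNR1 limit stood 7 nuclei with 7 CNR1 UMIs (ADARB2 at 12311 CPM) and 4 nuclei with 8 (ADARB2 at 13020 CPM). The 11 nuclei left out by exactly 1 LHX6 UMI had ADARB2 at 212 CPM and no VIP UMI, against 11126 CPM of ADARB2 in the 162 chosen nuclei. ADARB2, an RNA-editing enzyme homologue, marks interneurons of caudal origin. On the GAD side, the 59 CRH nuclei with exactly 3 GAD1 and GAD2 UMIs and the 83 nuclei with exactly 2 that met all other criteria had VIP at 48.0 and 35.7 CPM and CCK at 157 and 136 CPM. The limits on SLC17A7 and SST divided few nuclei: 21 CRH nuclei had 1 SLC17A7 UMI against 4 left out with 2, and 14 had 1 SST UMI against 3 left out with 2.

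Of the 4 genes given as markers of these cells, CRH is in the rule, VIP and CCK were higher than in gate-matched nuclei, and TAC3 was near 0. VIP stood at 5.68, 33.1 and 44.7 CPM in the CRH nuclei of barcode sets 1, 2 and 3, against 5.49, 7.04 and 4.61 CPM in gate-matched nuclei. In set 1 the 2 groups were level, and the difference came from sets 2 and 3. Over all sets VIP was 26.9 CPM in CRH nuclei and 5.79 CPM in gate-matched nuclei, a log2 ratio of 2.22 (95% interval 1.45 to 2.96), which was 2.74, 2.28 and 1.43 without sets 1, 2 and 3. CNR1-high nuclei had 14.5 CPM of VIP (log2 ratio of CRH nuclei over them 0.89, and 0.13 without set 3) and the other inhibitory nuclei 5.56 CPM. Of the 25 VIP UMIs, 15 lay in the 59 CRH nuclei at the GAD limit of 3, and the 103 above it had 16.2 CPM of VIP (interval 7.77 to 29.8), against 5.46 CPM (interval 3.71 to 7.75) in the 928 gate-matched nuclei above it.

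CCK was measured at 90.9, 145 and 95.2 CPM in the CRH nuclei of sets 1, 2 and 3, against 48.7, 50.1 and 67.8 CPM in gate-matched nuclei. Every set of CRH nuclei lay above every set of gate-matched nuclei, but the ratio (log2 0.96, interval 0.63 to 1.28) was just under 2-fold. With at least 5 GAD1 and GAD2 UMIs in both groups it was 0.28, and the 103 CRH nuclei above the limit of 3 had 81.0 CPM of CCK, against 54.9 CPM in gate-matched nuclei above it. CNR1-high nuclei, at 113 CPM, were close to the 106.5 CPM of all CRH nuclei (log2 -0.09, interval -0.42 to 0.24). TAC3, which encodes neurokinin B, had 2 UMIs in the CRH nuclei, both in set 2 (2.15 CPM over all, against 2.76 CPM in gate-matched nuclei), so this marker was not borne out at this depth. CRHBP, the secreted protein that binds CRH, had 3 UMIs in CRH nuclei (3.23 CPM), against 9.61 CPM in gate-matched nuclei and 16.4 CPM in the other inhibitory nuclei.

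**Figure D1:**
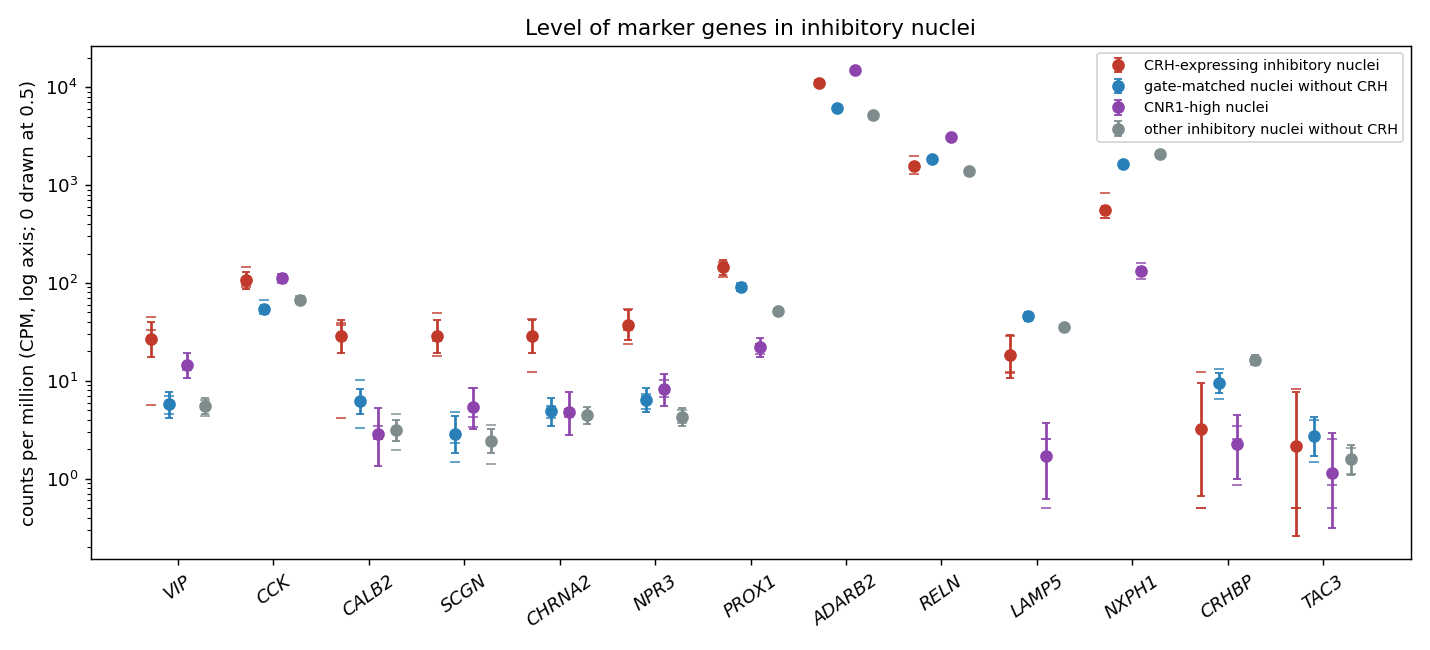
Level of 13 genes in CRH nuclei (red, leftmost of each gene), gate-matched nuclei without CRH (blue), CNR1-high nuclei (purple) and all other inhibitory nuclei without CRH (grey), in CPM on a log axis. Points are summed groups with exact 95% Poisson intervals and short dashes are the 3 barcode sets. Summed over the sets, VIP, CALB2, SCGN, CHRNA2 and NPR3 are highest in the CRH nuclei (in set 1, VIP is below that of CNR1-high nuclei), CCK is alike in CRH and CNR1-high nuclei, and TAC3 is near 0 in all groups.

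Seen nucleus by nucleus, VIP had a UMI in 12.96% of CRH nuclei (21 of 162, interval 8.21 to 19.1%), against 9.45% of CNR1-high nuclei, 3.03% of gate-matched nuclei, 0.648% of excitatory nuclei and 1.13% of astrocyte nuclei. CALB2 had a UMI in 12.3% of CRH nuclei (20 of 162), against 2.07% of CNR1-high and 3.03% of gate-matched nuclei, with 0.144 and 0.189% in excitatory and astrocyte nuclei. CCK had a UMI in 36.4% of CRH nuclei (59 of 162), against 41.9% of CNR1-high and 22.1% of gate-matched nuclei; 18.2% of excitatory and 14.5% of astrocyte nuclei held one too. With each nucleus thinned to 2000 UMIs the shares in CRH nuclei against gate-matched nuclei were 6.79 and 1.41% for VIP, 6.17 and 1.49% for CALB2 and 18.5 and 9.63% for CCK, and 3.03% of excitatory and 7.42% of astrocyte nuclei held CCK. TAC3 shares were 1.23% in CRH nuclei and 1.48% in gate-matched nuclei, with 0.576% in excitatory nuclei.

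CCK was found more often in CRH nuclei with VIP than in those without, though the intervals overlap at their edges. Among CRH nuclei with a VIP UMI, 13 of 21 also held CCK (61.9%, interval 38.4 to 81.9%), against 46 of the 141 without VIP (32.6%, interval 25.0 to 41.0%). RELN, which encodes the secreted glycoprotein reelin, ran the other way: it was present in 4 of the 21 with VIP (19.0%, interval 5.45 to 41.9%) and in 45.4% of the 141 without (interval 37.0 to 54.0%), again with intervals that overlap at their edges. PROX1, a transcription factor of caudal interneurons, was found in 52.4% of CRH nuclei with VIP and 48.2% of those without, which does not differ beyond counting error. These shares rest on few nuclei and on detection of single UMIs.

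Levels moved with the number of CRH UMIs in a nucleus. Nuclei of the gate with 0, 1, 2 and at least 3 CRH UMIs numbered 1287, 120, 32 and 10, with median depths of 5482, 5073, 5398.5 and 5052.5 UMIs. VIP was 5.79, 14.3, 67.4 and 57.2 CPM in these classes, and CCK was 54.6, 83.0, 157 and 248 CPM. ADARB2 was 6122, 10180, 13996 and 13972 CPM, and PROX1 was 90.6, 142, 152 and 153 CPM. RELN was as high with 1 CRH UMI (1863 CPM) as with 0 (1838 CPM), but 814 CPM with 2 and 133 CPM with at least 3. LAMP5, a lysosome-associated membrane protein that marks neurogliaform interneurons of the cortex, was 45.7, 20.03, 11.2 and 19.1 CPM. The class with 1 CRH UMI thus lay between the others for VIP, CCK and ADARB2, and resembled the nuclei without CRH for RELN. Among the 42 nuclei with at least 2 CRH UMIs, 26.2% held VIP, 54.8% held CCK and 21.4% held CALB2.

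**Figure D2:**
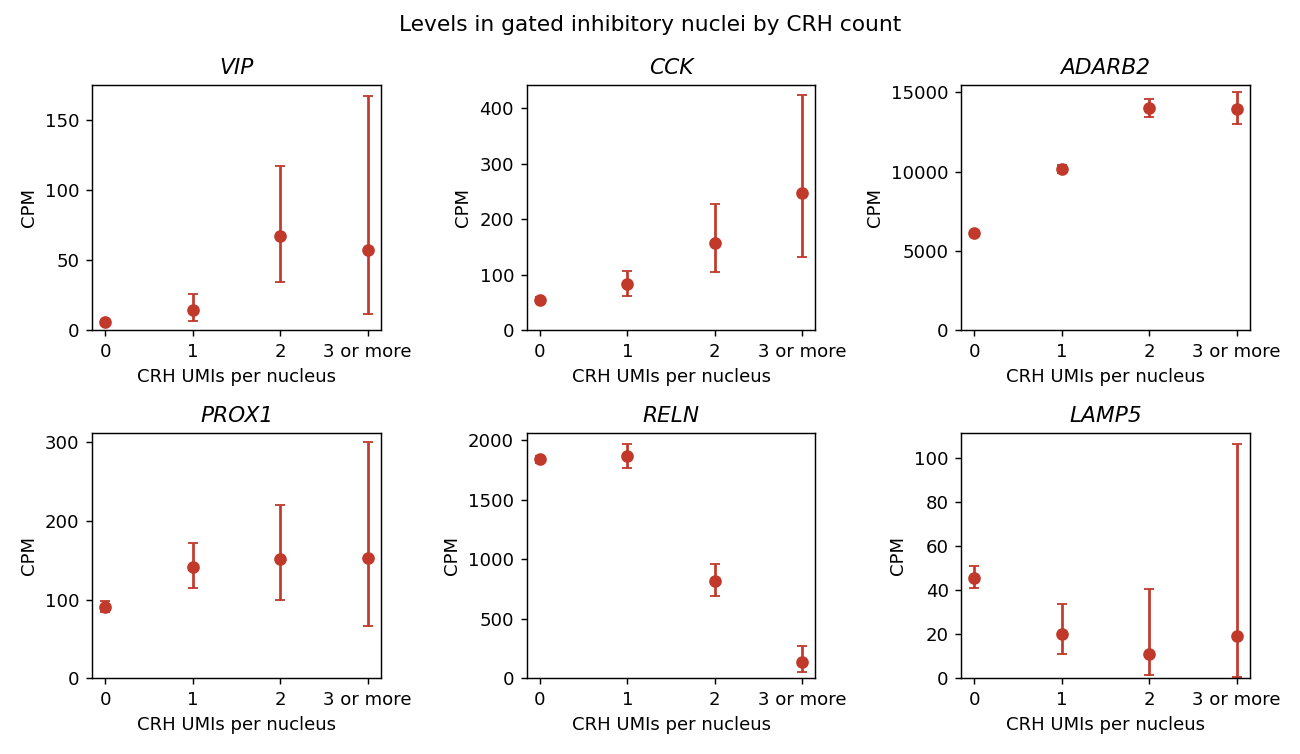
Levels of 6 genes (CPM, axes from 0) in gated inhibitory nuclei with 0, 1, 2 and at least 3 CRH UMIs; bars are exact 95% Poisson intervals of the summed counts. VIP, CCK and ADARB2 are higher in nuclei with 2 CRH UMIs than in those with 0, while RELN is lower.

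Against gate-matched nuclei, which differ by rule only in the CRH count, 91 of 8762 measured genes (1.04%) were at least 2-fold higher in CRH nuclei with that direction in all 3 barcode sets, and 110 (1.26%) were at least 2-fold lower. A gene was measured if the mean of both CPM values would give at least 10 UMIs in the smaller group. Calling is a description of these nuclei, since a pool gives no test. Where the sets of a called gene are said not to overlap, the calling itself favours this. No share without overlap over all measured genes is given, so it adds no support. Among genes with a symbol and outside the rule, the largest ratio was that of SCGN, which encodes the calcium-binding protein secretagogin. It stood at 25.6, 49.7 and 17.9 CPM in the CRH nuclei of sets 1, 2 and 3, against 4.76, 1.48 and 2.31 CPM in gate-matched nuclei, with no overlap between the groups (log2 3.33, interval 2.46 to 4.21). The ratio was 2.57 without set 2, where it came below those of PPP1R1C (3.08), CHRNA2 (2.96) and NPR3 (2.68), 4.08 without set 1, and 2.21 with at least 5 GAD1 and GAD2 UMIs. PPP1R1C, an inhibitor of protein phosphatase 1, followed with 30.1 CPM in CRH nuclei against 3.95 CPM in gate-matched nuclei (log2 2.93).

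CHRNA2, the nicotinic acetylcholine receptor subunit α2, was at 42.6, 12.4 and 26.8 CPM in CRH nuclei, against 4.76, 5.56 and 4.15 CPM in gate-matched nuclei (log2 2.58, interval 1.80 to 3.33). NPR3, the receptor that clears natriuretic peptides, was at 54.0, 33.1 and 23.8 CPM in CRH nuclei, against 5.12, 7.04 and 7.38 CPM in gate-matched nuclei (log2 2.55, interval 1.88 to 3.20, and 1.95 without set 1). Neither gene overlapped between the groups. CALB2 was at 36.9, 4.14 and 38.7 CPM in CRH nuclei, against 5.86, 3.34 and 10.2 CPM in gate-matched nuclei (log2 2.23, interval 1.49 to 2.94), and its set 2 value rests on 1 UMI and lies within the range of the gate-matched sets. The acid-sensing channel subunit ASIC4 (log2 2.27, and 2.90 without set 3), the tetraspanin TSPAN15 (2.34), the secreted protein VWC2L (2.00), the heparan sulphate sulphotransferase HS3ST3A1 (1.97), the G protein regulator RGS6 (1.80) and VWDE (1.78) complete the 12 largest together with VIP. RGS6 was the most abundant of them, at 706 CPM in CRH nuclei against 202 CPM in gate-matched nuclei.

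At the other end, ADAMTSL1, a secreted protein of the extracellular matrix, was 25.6, 29.0 and 11.9 CPM in CRH nuclei, against 173, 168 and 170 CPM in gate-matched nuclei (log2 -2.98, interval -3.70 to -2.35). CUX2, a homeodomain transcription factor, was 14.2, 29.0 and 29.8 CPM in CRH nuclei, against 90.03, 86.01 and 92.3 CPM in gate-matched nuclei (log2 -1.92, interval -2.60 to -1.30). Both were far apart in every set. The other genes among the 12 lowest were DGKK, ADAMTS12, CPED1, MORN5, SH3RF2, SCUBE1, PRKCQ, RBM11, ITGA6 and SLC27A6, with log2 ratios between -2.15 and -1.65. Except for ITGA6, with 15 UMIs, they rest on 4 to 7 UMIs in CRH nuclei, and with a barcode set left out their ratios ran between -3.56 (DGKK without set 1) and -1.10 (SH3RF2 without set 1). With at least 5 GAD1 and GAD2 UMIs the ratio of PRKCQ was -0.29.

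Of 398 genes in 13 lists for this tissue, 360 were in the table and 268 were measured against gate-matched nuclei. Called higher were 11 (4.10%) and lower 12 (4.48%), against 1.04 and 1.26% of all measured genes. The lists were drawn up with knowledge of what marks interneurons and with earlier results of these data known. Their shares here and in the other comparisons are therefore not independent of the data. Genes of caudal ganglionic eminence and VIP interneurons had 3 of 18 measured members higher (VIP, CALB2 and CHRNA2) and 2 lower (LAMP5 and SV2C), with a median log2 ratio of 0.67 against -0.02 over all measured genes. LAMP5 was 28.4, 12.4 and 11.9 CPM in CRH nuclei, against 47.2, 46.3 and 42.9 CPM in gate-matched nuclei (log2 -1.32, interval -2.12 to -0.62). Genes of medial eminence interneurons, a class the LHX6 and SST limits already select against in both groups, had 0 of 10 higher and 2 lower, with a median of -0.55. These were NXPH1, the secreted neurexin ligand neurexophilin 1, and NOS1, the neuronal nitric oxide synthase. NXPH1 was 457, 833 and 461 CPM in CRH nuclei, against 1544, 1712 and 1627 CPM in gate-matched nuclei (log2 -1.55, interval -1.68 to -1.42). NOS1 was 119, 33.1 and 50.6 CPM in CRH nuclei, against 171, 202 and 148 CPM in gate-matched nuclei, and its log2 ratio of -1.28 became -0.91 without set 2 and -2.04 without set 1. Among genes of the lateral eminence and of central or intercalated amygdala neurons, 0 of 9 measured members were called in either direction (median -0.08).

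**Figure D3:**
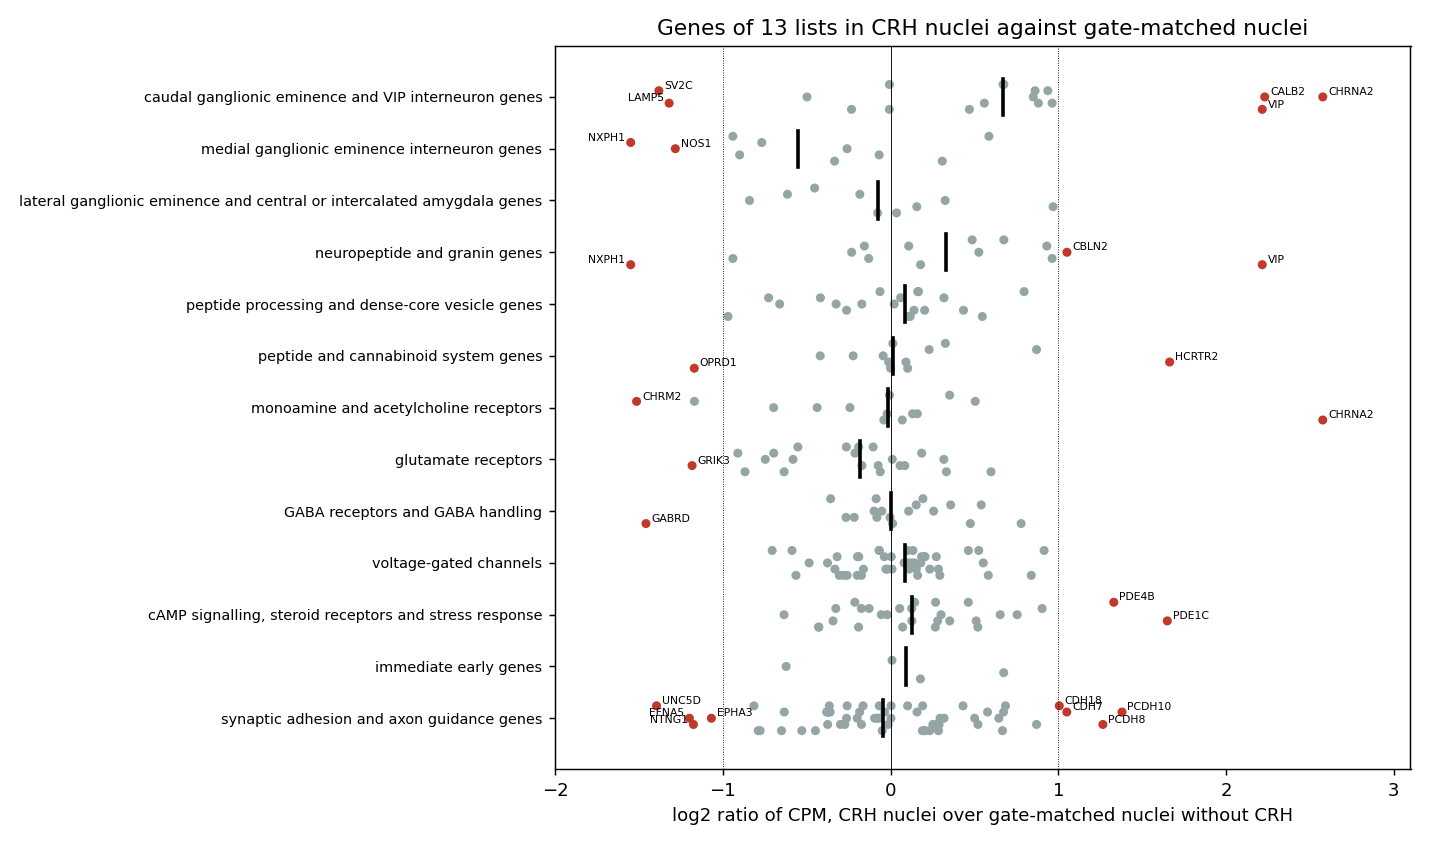
Log2 ratio of CPM, CRH nuclei over gate-matched nuclei without CRH, for the measured genes of 13 lists (1 row each). Dots are genes, called ones are red and named, black bars are list medians, and dotted lines mark 2-fold. The caudal interneuron list lies to the right of 0 in its median and the medial interneuron list to the left, and no voltage-gated channel or lateral eminence gene is called.

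Receptor and signalling genes were mostly near a ratio of 1. HCRTR2, the orexin receptor 2, was 73.9, 87.0 and 86.3 CPM in CRH nuclei, against 28.2, 23.0 and 26.3 CPM in gate-matched nuclei, without overlap (log2 1.66, interval 1.26 to 2.05). It was the 1 gene called higher of 13 measured peptide and cannabinoid system genes, and OPRD1, the delta opioid receptor, was the 1 called lower (log2 -1.17, which was -0.84, -0.85 and -2.15 without sets 1, 2 and 3). Among 14 measured receptors for monoamines and acetylcholine, CHRNA2 was higher and the muscarinic M2 receptor CHRM2 lower. CHRM2 was at 42.6, 53.9 and 53.6 CPM in CRH nuclei, against 136, 150 and 138 CPM in gate-matched nuclei (log2 -1.51). The kainate receptor GRIK3 (log2 -1.18, and -0.91 without set 3), of 22 glutamate receptor genes, and the extrasynaptic GABA-A subunit GABRD (-1.46), of 18 GABA genes, were lower. None of 46 measured voltage-gated channel genes was called.

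Of 29 measured genes of cAMP signalling, steroid receptors and stress response, 2 were higher and 0 lower, both of the higher ones phosphodiesterases, which break down cyclic nucleotides. PDE1C was 210, 157 and 238 CPM in CRH nuclei, against 67.0, 65.2 and 65.1 CPM in gate-matched nuclei (log2 1.65, interval 1.40 to 1.89). PDE4B was 716, 692 and 964 CPM in CRH nuclei, against 347, 313 and 287 CPM in gate-matched nuclei (log2 1.33, interval 1.21 to 1.45). The groups did not overlap for either gene. Of 14 measured neuropeptide and granin genes, VIP and CBLN2, a secreted synapse organiser of the cerebellin family, were higher and NXPH1 lower, and CBLN2 lay at the limit (75.3 CPM in CRH nuclei against 36.3 CPM in gate-matched nuclei, log2 1.05, and 0.99 without set 1). Peptide processing and dense-core vesicle genes had 0 of 20 called, and immediate early genes 0 of 4.

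Synaptic adhesion and axon guidance genes had 4 of 60 members higher and 4 lower, with a median of -0.04. The higher ones were the protocadherins PCDH10 (108 CPM in CRH nuclei against 41.3 CPM in gate-matched nuclei, log2 1.38) and PCDH8 (1.27) and the cadherins CDH7 (1.05, and 0.80 without set 3) and CDH18 (1.01, and 0.94 without set 2). The lower ones were the netrin receptor UNC5D (753 CPM in CRH nuclei against 1980 CPM in gate-matched nuclei, log2 -1.40), the ephrin EFNA5 (-1.20), the membrane-anchored netrin NTNG1 (-1.18, and -0.95 without set 1) and the ephrin receptor EPHA3 (-1.07, and -0.96 without set 1).

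Against all other inhibitory nuclei without CRH, 129 of 8738 measured genes (1.48%) were called higher and 153 (1.75%) lower. This group holds the medial, CNR1-high and other neurons that the rule removed, so part of the difference is set by the rule. ADARB2 and transcription factors of caudal interneurons were higher here. ADARB2 was 11126 CPM in CRH nuclei against 5256 CPM in the other inhibitory nuclei (log2 1.08), PROX1 was 144 against 51.2 CPM (1.49) and NR2F2, the nuclear receptor COUP-TFII, was 51.6 against 21.9 CPM (1.24). With CALB2 and CHRNA2 they made 5 higher of 18 measured caudal genes, and SV2C was the 1 lower (log2 -1.02, and -0.96 without set 1). Without set 1, NOS1 had -2.02 and TAC1 -3.79. Of 11 measured medial genes 0 were higher and 4 lower: SATB1, TAC1, NOS1 and NXPH1. TAC1, which encodes the tachykinin substance P, had 3 UMIs in CRH nuclei (3.23 CPM), against 24.6 CPM in the other inhibitory nuclei. Lateral eminence genes again had 0 of 10 called. VIP was 26.9 CPM in CRH nuclei and 5.56 CPM in the others (log2 2.27) but failed the rule on direction, as set 1 of CRH nuclei (5.68 CPM) lay just under set 1 of the others (5.73 CPM).

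The list genes called in this comparison were 18 higher and 17 lower of 271 measured (6.64 and 6.27%). Besides those named, GRPR, the receptor of gastrin-releasing peptide, was 18.3 CPM in CRH nuclei against 6.42 CPM in the others (log2 1.51, and 0.80 without set 1). The sodium-activated potassium channel KCNT2 was 1059 CPM in CRH nuclei against 482 CPM (1.13), and was the 1 called of 46 voltage-gated channel genes. The phosphodiesterase PDE7B (1.24) joined PDE1C (1.75) and PDE4B (1.39), and NR4A3, an orphan nuclear receptor of the immediate early genes, was higher too (1.27, and 0.97 without set 3). Lower were the AMPA receptor subunit GRIA1 (1491 CPM in CRH nuclei against 3133 CPM, log2 -1.07) and the prohormone convertase PCSK1, with 7 UMIs in CRH nuclei (-1.33, and -0.93 and -2.51 without sets 1 and 3).

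CNR1-high nuclei are the group most like the CRH nuclei in VIP and CCK, yet they differed from them in more genes than gate-matched nuclei did: 360 of 8695 genes (4.14%) were higher in CRH nuclei and 212 (2.44%) lower. Whether the counts of the 2 comparisons differ by more than the sizes and depths of the groups give was not tested. PROX1 was 144 CPM in CRH nuclei against 22.2 CPM in CNR1-high nuclei (log2 2.70), CALB2 was 29.1 against 2.85 CPM (3.35), CHRNA2 was 29.1 against 4.84 CPM (2.58) and NOS1 was 72.1 against 4.84 CPM (3.90). The matrix-related gene VWDE (80.7 CPM in CRH nuclei against 1.99 CPM, log2 5.34) and the glycosyltransferase GALNT14 (427 against 15.4 CPM, log2 4.796) had the largest ratios. SLC17A8, the vesicular glutamate transporter VGLUT3 of CCK interneurons, had 1 UMI in CRH nuclei, in set 1 (1.08 CPM), against 45.3 CPM in CNR1-high nuclei. Lower in CRH nuclei were also the phosphodiesterase PDE5A (14.0 against 244 CPM, log2 -4.13, and -4.82 without set 1), the glypican GPC5 (364 against 2948 CPM, -3.02), the serotonin receptor HTR3A (20.4 against 67.2 CPM, -1.72) and the VIP receptor VIPR2 (5.38 against 19.6 CPM, -1.87).

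The lists had 46 members higher and 15 lower of 264 measured (17.4 and 5.68%) in this comparison. Synaptic adhesion and axon guidance genes had 15 higher and 6 lower of 59, among them the cadherin CDH9 (516 CPM in CRH nuclei against 131 CPM, log2 1.98). Glutamate receptors had 3 higher and 0 lower of 21, led by the AMPA subunit GRIA4 (820 against 174 CPM, 2.23) and the NMDA subunit GRIN3A (296 against 72.6 CPM, 2.03). NR3C1 encodes the glucocorticoid receptor, which binds the stress hormone whose release CRH starts. It was 103 CPM in CRH nuclei against 46.4 CPM in CNR1-high nuclei (1.15, and 0.51 with at least 5 GAD1 and GAD2 UMIs). NR3C1 was not called against gate-matched nuclei or against the other inhibitory nuclei. VGF, a granin-like secreted protein, was 43.0 CPM in CRH nuclei against 13.4 CPM (1.68). Medial eminence genes, of which 2 or 4 were lower in the comparisons above, had 3 of 10 higher here and 0 lower, with a median of 0.43 against 0.03 over all measured genes: NOS1, NXPH1 (2.08) and the transcription factor SOX6 (64.6 against 21.4 CPM, 1.60). With at least 2 CRH UMIs the log2 ratio was 3.16 for NOS1, but 0.57 for NXPH1 and 0.02 for SOX6. Of 10 lateral eminence genes, the transcription factor BCL11B (127 against 29.0 CPM, 2.13) and the retinoic acid receptor RARB (43.0 against 16.8 CPM, 1.36) were higher and the dopamine receptor DRD2 (9.68 against 24.5 CPM, -1.34) was lower. Markers of other cell types moved in this comparison too: the summed oligodendrocyte markers were 196 CPM in CRH nuclei against 96.0 CPM in CNR1-high nuclei, the excitatory markers 271 against 162 CPM and the astrocyte markers 728 against 643 CPM. Of single markers, GFAP (1.77, and -1.29 without presumed doublets) and SLC4A4 (1.17) of astrocytes were called higher, and CLDN11 of oligodendrocytes (-1.07) and APBB1IP of microglia (-2.22) lower. Their part in the result was not tested. Calling already required the same direction in each barcode set, so leaving out 1 set could hardly change the direction. Of the 86 genes named or listed and called in this comparison, 78, 83 and 77 stayed at least 2-fold apart without sets 1, 2 and 3.

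Clustering spread the CRH nuclei over several groups. The nuclei with at least 3 GAD1 and GAD2 UMIs and at most 1 of SLC17A7 were clustered on variable genes from which every gene of the rule and of the lists had been removed, and CRH, VIP and the other list genes were then read out over the 15 clusters. The cluster numbered 11 (253 nuclei, median 4864 UMIs) had the largest share of nuclei with CRH, 34.8% (interval 28.9 to 41.0%), with 35.7, 28.4 and 39.5% in the 3 barcode sets and a CRH level of 104 CPM. It held 80 of the 162 CRH nuclei (49.4%). Cluster 4 came next with 14.4% of nuclei (37.9 CPM) and 36 CRH nuclei, then cluster 3 with 14.0% (32.6 CPM) and 8 CRH nuclei, since most of its CRH-holding nuclei failed the rule. CRH nuclei were found in 11 of the 15 clusters, and the share with CRH was under 5% in 8 clusters.

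Cluster 11 had the highest VIP level, 41.3 CPM, and a PROX1 level of 177 CPM, with CCK at 124 CPM, ADARB2 at 13230 CPM and LAMP5 at 0.79 CPM. Cluster 10 was the only other cluster with VIP above 10 CPM (29.2 CPM), and the one with the highest CCK (228 CPM) and CNR1 (3326 CPM), but its CRH level was 5.20 CPM. VIP and CRH were thus high together in 1 of the 2 clusters with VIP. Cluster 4 had VIP at 3.06 CPM, RELN at 5607 CPM and LAMP5 at 64.8 CPM. Cluster 3 had HTR3A at 132 CPM, CNR1 at 1757 CPM and VIP at 3.91 CPM. MEIS2, a transcription factor of lateral eminence neurons among others, was highest in cluster 9 (235 CPM), which held 3 CRH nuclei.

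**Figure D4:**
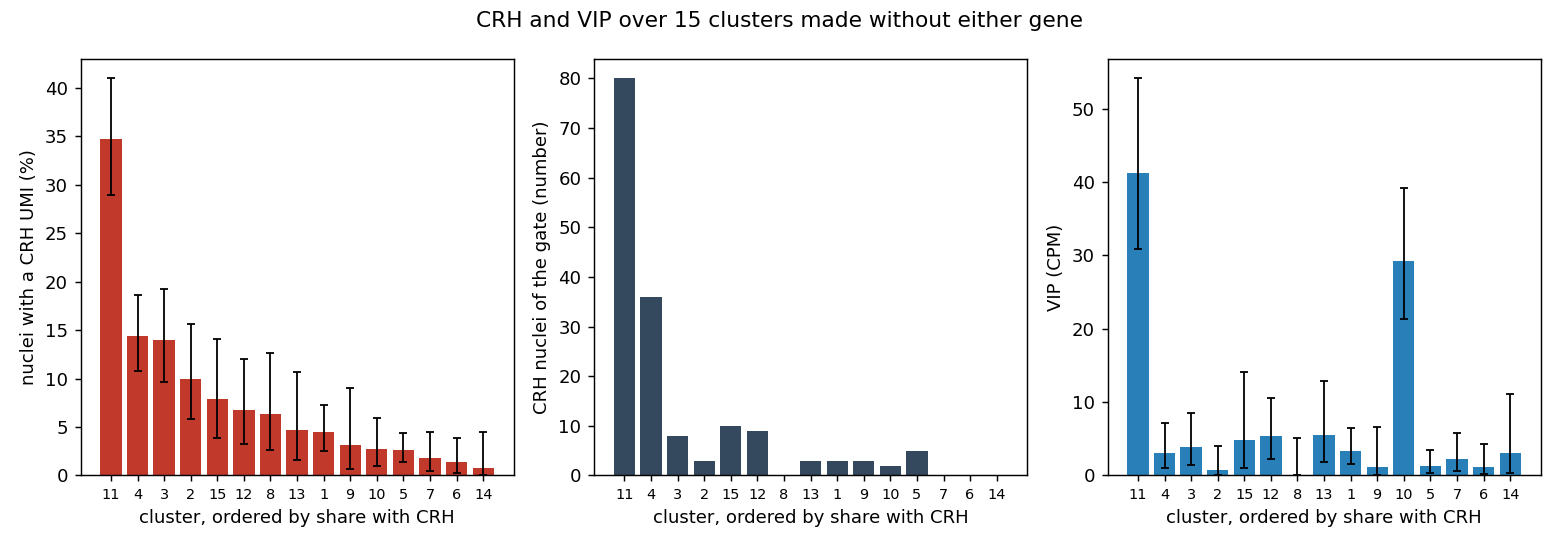
Over 15 clusters of inhibitory nuclei, from left to right the share of nuclei with a CRH UMI (exact 95% interval), the number of CRH nuclei of the rule, and the VIP level in CPM (exact 95% Poisson interval). Cluster 11 has the largest share with CRH (34.8%), 80 CRH nuclei and the highest VIP, and cluster 10 has VIP at 29.2 CPM with CRH in 2.75% of its nuclei.

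The CRH nuclei within cluster 11 and those elsewhere differed in most markers; the clusters were made from the same nuclei, so these values are a description. The 80 CRH nuclei in cluster 11 had VIP at 50.0 CPM, CCK at 159, CALB2 at 52.4, CHRNA2 at 57.1 and CBLN2 at 143 CPM. The 82 CRH nuclei in other clusters had VIP at 7.86 CPM, CCK at 62.8, CALB2 at 9.82, CHRNA2 at 5.89 and CBLN2 at 19.6 CPM. RELN ran the other way, at 42.8 CPM in the CRH nuclei of cluster 11 against 2820 CPM in those elsewhere, as did NXPH1 (47.6 against 976 CPM), NDNF (2.38 against 66.8 CPM), a marker of superficial neurogliaform cells, LAMP5 (2.38 against 31.4 CPM) and the synaptic vesicle protein SV2C (7.14 against 120 CPM). At least 2 CRH UMIs were held by 29 of the 80 nuclei in cluster 11 and by 13 of the 82 elsewhere. Of the 21 CRH nuclei with a VIP UMI, 17 lay in cluster 11. Of all 80 CRH nuclei there, 47.5% held CCK and 13.75% RELN. The shares of CCK and RELN given above by VIP are thus not separate from this split.

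**Figure D5:**
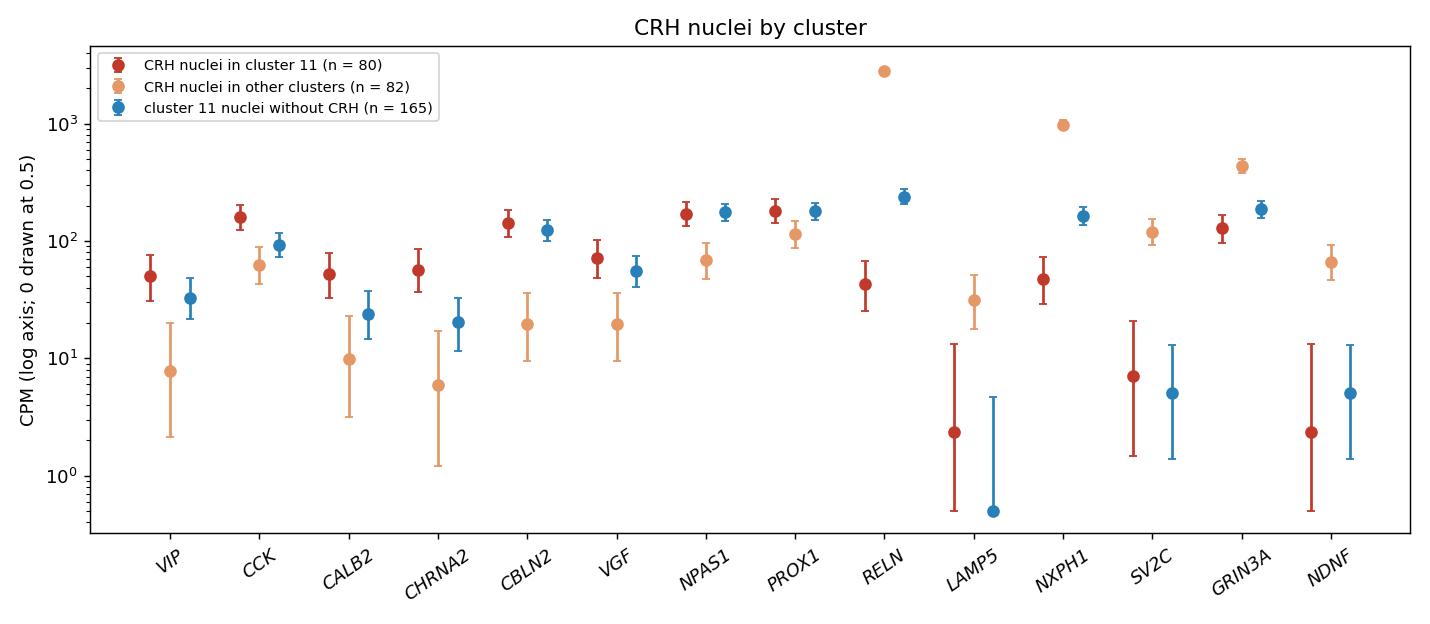
Levels of 14 genes (CPM, log axis, exact 95% Poisson intervals) in the 80 CRH nuclei of cluster 11 (red), the 82 CRH nuclei of other clusters (orange) and the 165 nuclei of cluster 11 without CRH (blue). The 2 groups of CRH nuclei lie apart for VIP, CCK, CALB2, CHRNA2, CBLN2 and RELN, and the nuclei of cluster 11 with and without CRH lie close together for CBLN2, NPAS1 and PROX1.

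Nuclei of cluster 11 without CRH shared much of this profile. The 165 of them had VIP at 32.9 CPM, CALB2 at 24.0, CHRNA2 at 20.2, CBLN2 at 124, PROX1 at 178 and RELN at 239 CPM. In a comparison added after the data were seen, CRH nuclei were set against gate-matched nuclei within cluster 11 alone. Of the 45 named genes called over all gate-matched nuclei, 40 kept their direction there and 15 were still at least 2-fold apart. These 45 were picked on ratios that include the same nuclei, which favours the same direction, and no share over all measured genes was computed. Of all 91 genes called higher and 110 called lower, 15 and 5 were called again within cluster 11, and 14 and 14 outside it. The log2 ratio of PDE1C was 0.10 within the cluster and 1.65 over all, that of RGS6 was 0.48 and 1.80, that of VIP 0.59 and 2.22 and that of UNC5D -0.09 and -1.40. SCGN (1.84), TSPAN15 (1.78), CHRNA2 (1.46), PPP1R1C (1.40), HCRTR2 (1.09) and ADAMTSL1 (-2.34) stayed past 2-fold. CBLN2, CDH7 and CDH18 had 0.15, -0.40 and -0.23 within the cluster, so their difference over all gate-matched nuclei was not seen inside it. Outside cluster 11, 43 of the 45 kept their direction and 21 were at least 2-fold apart, among them PPP1R1C (2.67), HCRTR2 (1.54), VIP (1.43) and ADAMTSL1 (-2.46).

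Markers of other cell types were also summed in CRH nuclei and gate-matched nuclei, and their part in the results was not tested. The summed level of 8 excitatory neuron markers was 271 CPM in CRH nuclei (217 to 330 CPM over the sets), against 296 CPM in gate-matched nuclei. For 8 astrocyte markers it was 728 CPM in CRH nuclei and 857 CPM in gate-matched nuclei. For 8 oligodendrocyte markers it was 196 CPM in CRH nuclei (99.4, 331 and 199 CPM in sets 1, 2 and 3), against 134 CPM in gate-matched nuclei. The 5 markers of oligodendrocyte precursors found in the table summed to 382 CPM in CRH nuclei and 354 CPM in gate-matched nuclei, with OLIG1 and OLIG2 at 0 in CRH nuclei. Microglial markers summed to 48.4 CPM in CRH nuclei and 66.2 CPM in gate-matched nuclei. One of them, APBB1IP, was called lower against gate-matched nuclei (log2 -1.07, with 8 UMIs in CRH nuclei) and against the other inhibitory nuclei (-1.61). Endothelial and mural markers summed to 22.6 CPM in CRH nuclei and 25.4 CPM in gate-matched nuclei, with CLDN5 at 0 in both. The 5 ependymal markers summed to 189 CPM in CRH nuclei, with FOXJ1 and PIFO at 0, and 214 CPM in gate-matched nuclei. Of the 162 CRH nuclei, 14 had doublet scores in the range presumed to be 2 nuclei in 1 droplet. So had 125 of the 1287 gate-matched nuclei, 23 of the 434 CNR1-high nuclei and 255 of the 3004 other inhibitory nuclei. The number presumed in each barcode set was fixed in advance by the size of the set.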

How the data were processed

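Single-nucleus libraries were made with the 10x Genomics 3′ kit, per the labels' protocols. The deposited values were raw UMI counts, and the submitters' processing notes give fastp, Cell Ranger 3.0.0 and the build GRCh38 for the authors' steps. As 5142 of 19708 rows carry Ensembl identifiers, the build behind the counts is not settled here and no coordinates are given. A reference gene table held symbols for 851 of those rows, and 796 were renamed. Symbols that were duplicated or already in the table were not used. The table holds 151526883 UMIs in 26400 nuclei (9201, 8900 and 8299 in the 3 barcode sets).

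The members and the gene lists were chosen with earlier results of these data known. Counts were summed over the nuclei of a group and scaled to CPM. The log2 ratio of CRH nuclei over another group has an exact conditional 95% interval, and a count of 0 was set to 3. A gene was called when at least 2-fold apart and in the same direction in all 3 sets. The 3 sets may be technical, and no edgeR or other test over samples could be run. Named are, per comparison, the 12 called genes with a symbol at each end, all called list genes, and VIP, CCK, TAC3, CALB2 and CRHBP. Excitatory nuclei had at least 3 SLC17A7 UMIs, and astrocyte nuclei at least 2 AQP4 UMIs, both with 0 of GAD1 and GAD2.

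Clustering (scanpy 1.11.5, igraph 0.11.9) used 2000 variable genes, 30 components, 15 neighbours and Leiden resolution 0.5 on counts scaled to 10000 and log-transformed. Doublets were kept, and leaving out the nuclei with the highest Scrublet scores (0.8% per 1000 nuclei in each set) was an alternative. The calling was run on simulated Poisson counts with planted changes larger than 2-fold. Such counts hold no spread between nuclei, so the run does not show how reliable calls near the 2-fold limit are.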

Additional observations from a re-analysis of the deposited data

How the results depend on the processing

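No paired analysis was possible because the columns carry no replicate numbers that tie nuclei to samples. Of 2394 values of named genes under the alternatives, 1985 stayed within their counting interval and 390 moved beyond it. A further 19 changed sign, counted only for genes called under the main settings. Sign changes of uncalled genes, such as TAC3 against gate-matched nuclei, fall under the other counts. Alternatives that change only the minimum count leave each ratio as it is, so their values could not move. Centring on the median shifts all ratios of a comparison by the same small amount. Counts of called genes, given as higher and lower in CRH nuclei, followed the minimum count. With a minimum of 30 expected UMIs they were 63 and 74 against the other inhibitory nuclei, 45 and 41 against gate-matched nuclei and 194 and 109 against CNR1-high nuclei. With no minimum they were 305 and 532, 279 and 482, and 662 and 588. Thinning to 2000 UMIs gave 91 lower against the other inhibitory nuclei, and a minimum of 2 CRH UMIs gave 165 higher against CNR1-high nuclei. Counts like these do not fix the genes: of the 91 higher and 110 lower against gate-matched nuclei, 54 to 71 and 43 to 65 were also called when a barcode set was left out. With at least 5 GAD1 and GAD2 UMIs, 23 and 30 were.

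The split by cluster was chosen after the data were seen. Within cluster 11, 77 genes were called higher and 77 lower against the other inhibitory nuclei, where TAC1 had a log2 ratio of 0.33, SV2C 0.50, SATB1 0.33, CDH7 -0.31, CDH18 -0.13 and ADARB2 -0.029. FAM89A had 0 UMIs in the CRH nuclei of that cluster against 3 in those without CRH, and its 0.91 arises only from setting the 0 to 3. Against gate-matched nuclei in that cluster, SV2C had 0.36, SLC27A6 0.78, SCUBE1 2.36 (both on 2 or 3 UMIs in CRH nuclei), CDH7 -0.40 and CDH18 -0.23, and 15 higher and 5 lower genes were shared with the calls over all gate-matched nuclei. Outside the cluster 91 were lower against the other inhibitory nuclei, with CBLN2 at -0.65 and VWDE at -0.24. Against gate-matched nuclei there, 39 were higher and 47 lower, with CBLN2 at -0.44 and HS3ST3A1 at -0.10. Against CNR1-high nuclei, GFAP was -1.29 without presumed doublets, and SV2C was -0.24 and PDE1A -0.38 with at least 2 CRH UMIs. The cause of these changes was not tested.

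CRH nuclei were 3.36% of GAD nuclei and 8.65% of gated nuclei with at least 5 GAD1 and GAD2 UMIs, and 1.28 and 2.90% with at least 2 CRH UMIs. Co-detection of VIP, CCK and CALB2 was 6.79, 18.5 and 6.17% when thinned, by construction lower, and 26.2, 54.8 and 21.4% with at least 2 CRH UMIs. TAC3 was found in 0 to 1.98% of CRH nuclei when a barcode set was left out. The cluster with the largest share of CRH held CRH in 46.2% of its nuclei and 37.0% of the CRH nuclei at resolution 1.0. At resolution 0.25 it held 63.0% of the CRH nuclei. The lead of 1 cluster depended on the setting. The next cluster held CRH in 28.1% of its nuclei at resolution 1.0. Without presumed doublets the 2 largest shares were close, at 29.3 and 27.8% (84.6 and 79.5 CPM of CRH). With 929372 UMIs in all CRH nuclei, genes whose mean of both CPM values lay under about 10 CPM did not count as measured.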

Other observations

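CRH UMIs were also found outside the GAD-positive nuclei. The whole table held 1165 CRH UMIs in 967 nuclei. Of these nuclei, 699 had fewer than 3 GAD1 and GAD2 UMIs, 466 of them with 0 and 233 with 1 or 2. These counts are not set against a background. A CRH UMI was present in 3.09% of excitatory and 2.36% of astrocyte nuclei, which served as the background above. The 162 CRH nuclei held 219 of the 1165 UMIs.

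Within cluster 11, 8 nuclei held CRH but failed the rule. Over these 8, SCGN had 17 UMIs (344 CPM, interval 200 to 551), against 59.5 CPM (38.5 to 87.8) in the 80 CRH nuclei of the same cluster. CCK had 16 UMIs (324 CPM, 185 to 526), against 159 CPM (124 to 203), intervals that overlap. VIP had 5 UMIs (101 CPM, 32.9 to 236), against 50.0 CPM (30.9 to 76.4), and cannot be told apart. The intervals treat UMIs as independent and do not cover spread between nuclei. In the 80 CRH nuclei, the 25 SCGN UMIs lay in 11 nuclei. Whether SCGN differs between the 8 and the 80 was not tested.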
